A study of Homo sapiens with 20 samples.

Results

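CD4, CD8A and CD8B encode the co-receptors of T cells, and CD2, CD5, CD6, CD7 and CD28 encode surface proteins carried by most cells of the T lineage. Probe sets were taken as members when the platform's annotation named 1 of these 8 genes and no other, which gave 16 of the 22277 probe sets on the array. CD4 and CD8A had 2 and 1 of them, CD8B and CD7 2 each, CD2 and CD5 1 each, CD28 3 and CD6 4. The arrays measured RNA, so the values do not show how much protein was at the cell surface.

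Early thymocytes carry neither CD4 nor CD8, pass through a stage with both, and then keep 1 co-receptor as mature helper or cytotoxic cells. CD4 and the CD8 alpha chain hold the kinase LCK at the inner side of the membrane, and CD8 is found either as a pair of alpha chains or as an alpha chain with a beta chain. NOTCH1 drives the first steps of T-cell development in the thymus, and T-cell acute lymphoblastic leukemia (T-ALL) cells are arrested at different steps of that path, which is why these surface markers are used to classify the disease.

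The samples were 10 human T-ALL cell lines, each with 1 array after CompE and 1 after vehicle (DMSO). CompE is a gamma-secretase inhibitor, which blocks the cleavage that frees the active part of NOTCH receptors; it was given at 100 nM for 72 h, and the DMSO arrays were also taken at 72 h. Per the series' description, all of the lines carry activating NOTCH1 mutations; none of the groups holds cells without them. The lines were CUTLL1, HPB-ALL, KOPTK1, ALL-SIL, MOLT3, CCRF-CEM, PF382, P12-ICHIKAWA, DND41 and RPMI8402. Each line is a single leukemia grown in culture and is 1 replicate. Whether the CompE and DMSO cells of a line were grown apart is not stated, and p-values reflect only how the 10 lines vary. The question was how the RNA of these markers differs between the lines and whether it responds when NOTCH cleavage is blocked.

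All values are MAS5 signals on a linear scale as deposited, and changes are differences of log2(signal + 16), CompE minus DMSO, which understates the fold of dim genes. Array medians ran from 54.7 to 74.8. The lines read as T cells by other markers too: CD3D had a signal of at least 4460 after CompE and at least 5700 after DMSO, CD3E of at least 564 and 540, and LCK by its brighter probe set of at least 1070 and 896. Of the marker lists for other cells, 3 of 7 B-cell genes, 1 of 9 myeloid genes, 1 of 9 NK-cell genes, 1 of 3 stem-cell genes and 0 of 3 erythroid genes had a probe set bright enough to be tested, and none of these passed the test. Their summed signals ranged from 174 to 2240 after CompE and from 244 to 2780 after DMSO for B cells, from 114 to 385 and from 101 to 468 for myeloid cells, and from 206 to 1520 and from 157 to 1530 for NK cells. Those of stem cells ranged from 34.5 to 1950 and from 18.5 to 1190, with CD34 highest in RPMI8402, and those of erythroid cells from 33.0 to 131 and from 12.1 to 68.4. The defining myeloid genes CD14, MPO and LYZ, of interest because monocytes also carry CD4, reached at most 29.7 after CompE and 33.5 after DMSO, while CST3 and ITGAM, also on the myeloid list, reached 268 and 279, and 121 and 104, the ITGAM values in CUTLL1. Of the B-cell genes, MS4A1 reached at most 61.4 and 35.4, CD79A 1760 and 2470 in DND41, and BLK 125 and 134 in RPMI8402. Their part in the results was not tested. For the level of a silent gene, 33 probe sets of 19 genes of other tissues (liver, lens, pancreas and the like) were read on each array, and their 90th percentile lay between 29.0 and 82.0. That level is not strict, since 4 of these genes (APOA1, MBP, NPPA and SFTPB) had a probe set bright enough to be tested. As a sign of RNA quality, for ACTB, the 3' signal divided by the 5' signal, which grows as RNA degrades, ran from 1.22 to 9.76 after CompE and from 1.02 to 3.32 after DMSO, was higher after CompE in 9 lines, and was highest in KOPTK1 in both. For MOLT3, P12-ICHIKAWA and CCRF-CEM the DMSO array's label names another medium than that of the CompE array; the name it gives is that of a cell line, so the entry itself may be wrong. Of 6 NOTCH target genes listed as a check, 4 had a probe set that could be tested, and all 4 fell by their brightest probe set. HES1, a repressor induced by NOTCH, changed by -1.71 ± 0.307 (SE over 10 pairs; adjusted p = 0.0108 in limma), with the CompE array the lower one in every line. The other HES1 probe set tested was at -0.63 and did not pass the threshold of 0.05 (adjusted p = 0.0801 in limma). MYC changed by -1.50, NOTCH3 by -1.34 and CR2 by -1.95, each lower in 9 lines. With the ACTB ratio as a covariate, HES1 and NOTCH3 passed (limma adjusted p = 0.0275 and 0.035). MYC and CR2 did not (limma adjusted p = 0.0641 and 0.0689).

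The markers differed between lines far more than between treatments. For the 15 member probe sets that passed the filter on low signals, cell line accounted for 83.4 to 98.9% of the sum of squares and treatment for at most 3.8%, against medians of 79.4% and 2.3% over all 11685 probe sets tested. The level of a line, averaged over its 2 arrays, spanned a median of 4.63 on the log2 scale over the member probe sets, against a median of 1.35 over all tested probe sets. By this span, CD4 and CD8B (207979_s_at) stood at percentile 99.8 of all tested probe sets, and the member with the narrowest span, CD6 by 211900_x_at, at 85.6. These levels are a description, and lines were not tested against each other.

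Over all members, 0 of the 15 probe sets tested and 0 of the 8 genes passed limma's Benjamini-Hochberg threshold of 0.05, where 4.92% of the 11685 tested probe sets passed (2.31% higher and 2.61% lower); at an unadjusted p under 0.05 there were 3, against 23.2% of all tested. The exact sign-flip test over the 10 pairs, adjusted over all tested probe sets, called 0 of them, as it did of all probe sets. With 10 pairs its p cannot be below 0.00195. At that floor its adjusted p was 0.066, as for HES1, so no probe set could pass and the 0 says nothing of the members. Its unadjusted p for CD28 (206545_at) was 0.0332. With no filter on low signals limma called 0 of the 16, where it called 2.04% of all, and no member probe set had 1 sign in all 10 lines, as 2.96% of all tested did. The members' median change was 0.061, against 0.026 over all tested probe sets, with 9 positive and 6 negative. CD4 and CD2 were higher after CompE in 8 lines each, CD28 was lower in 9, 8 and 8 by its 3 probe sets, and CD7 was lower in 9 by 214049_x_at; 30.5% of all tested probe sets had the same sign in 8 or more lines. The spread of the change over lines was wide: its SD had a median of 0.674 over the members, against 0.390 over all tested probe sets. A change that misses the threshold at this spread may still be present, and the intervals given with each gene show the sizes that these 10 pairs allow.

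**Figure D1:**
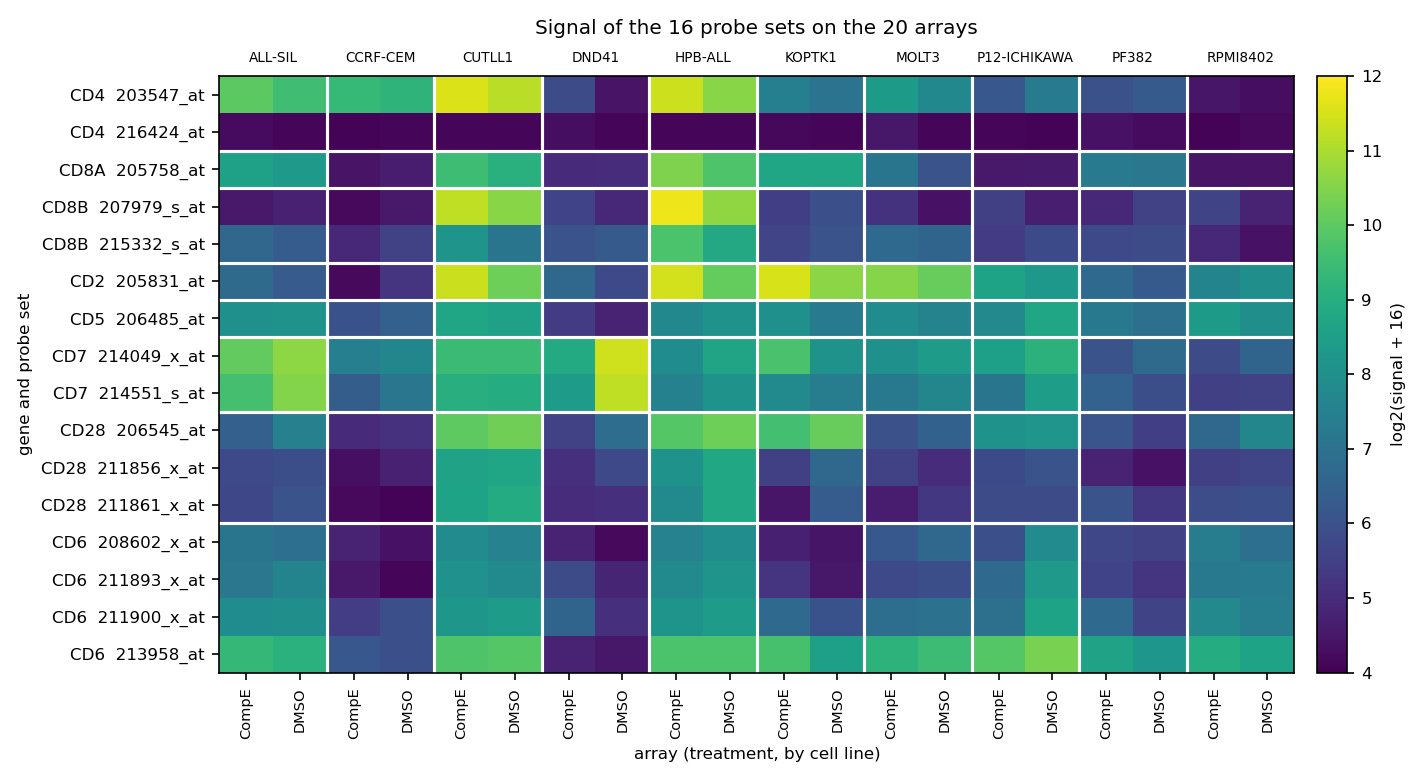
Heat map of log2(signal + 16) for the 16 probe sets (rows) on the 20 arrays (columns, CompE left of DMSO within each line). CUTLL1 and HPB-ALL are bright for CD4, CD8A, CD8B, CD2 and CD28 at once, RPMI8402 is dark for CD4 and both CD8 genes, and the 2 arrays of a line mostly share a colour.

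CD4 ranged from near 0 to among the brighter genes. By 203547_at its signal was 6.15 at the lowest, 236 at the median and 3045 at the highest after CompE, against 3.61, 170 and 2305 after DMSO. CUTLL1 (3045 after CompE and 2305 after DMSO) and HPB-ALL (2667 and 1515) were highest, followed by ALL-SIL (1007 and 731) and CCRF-CEM (644 and 574). RPMI8402 was lowest at 6.15 and 3.61, below the level of genes of other tissues, as was DND41 at 40.7 and 5.37. MOLT3 (312 and 198) and KOPTK1 (160 and 115) lay between these extremes. The second CD4 probe set, 216424_at, stayed between 0.869 and 6.90 on all 20 arrays and did not follow the first (r = -0.13 over 20 arrays); it was under the filter, gives no usable level and was not tested.

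Under CompE, CD4 was higher in 8 of 10 lines, with a change of 0.30 ± 0.178 (SE, 95% interval -0.075 to 0.678, limma adjusted p = 0.32). These are bulk samples, in which fewer cells with the RNA and less RNA per cell cannot be told apart. P12-ICHIKAWA, at 56.4 after CompE against 143 after DMSO, lay the other way, as did PF382 at 47.0 and 61.8, and P12-ICHIKAWA is among the lines whose labels name different media. The largest log2 change, 1.41, was that of DND41, where both signals were dim. The estimate was 0.18 without DND41, 0.46 without P12-ICHIKAWA and 0.48 without the 3 lines whose media labels differ, and none of these passed the test.

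CD8A, the alpha chain, ordered the lines in part as CD4 did (r = 0.69 and rho = 0.68 between their line levels, n = 10). Its signal (205758_at) was 5.23 at the lowest, 130 at the median and 1384 at the highest after CompE, against 5.61, 88.5 and 864 after DMSO. HPB-ALL was highest (1384 and 864), followed by CUTLL1 (718 and 528), KOPTK1 (411 and 398) and ALL-SIL (364 and 302). CCRF-CEM, P12-ICHIKAWA and RPMI8402 were below 10 on both arrays, and DND41 read 15.3 and 16.5. CCRF-CEM thus had CD4 signal well above background with CD8A near 0. PF382 had CD8A (140 and 127) above the level of genes of other tissues on both arrays, and CD4 (47.0 and 61.8) below it. ALL-SIL, CUTLL1, HPB-ALL, KOPTK1 and MOLT3 had both genes above that level on both arrays.

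CD8B, the beta chain, was bright in only 2 of the 10 lines on these arrays. By 207979_s_at, HPB-ALL had 3553 after CompE and 1625 after DMSO, CUTLL1 had 2410 and 1519, and the highest of the other lines was 33.5 after CompE and 46.1 after DMSO. ALL-SIL (7.61 and 10.4) and KOPTK1 (28.5 and 46.1), where CD8A was above the level of genes of other tissues, were below it by this CD8B probe set. The other CD8B probe set, 215332_s_at, was also highest in HPB-ALL (837 and 435) and CUTLL1 (266 and 122). MOLT3 followed at 91.1 and 79.7, above the level of genes of other tissues on both arrays (67.1 and 47). ALL-SIL read 83.2 and 63.9, of which the CompE value was above that level (48.8) and the DMSO value was not (76.5). Probe sets whose names end in _s_at or _x_at can match several transcripts. Both CD8B probe sets end in _s_at, so the dim values of either may not all be CD8B. CD8A and CD8B are direct neighbours on chromosome 2 with 0 annotated genes between them in RefSeq (GRCh38.p14).

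Under CompE both CD8 genes had positive changes that did not pass the test. CD8A was at 0.22 ± 0.132 (SE, 95% interval -0.054 to 0.504, limma adjusted p = 0.317) and was higher in 7 of 10 lines. MOLT3 (121 after CompE and 49.8 after DMSO) and HPB-ALL had the largest log2 changes, 1.06 and 0.67; without MOLT3, whose media labels differ, the estimate was 0.13. CD8B was at 0.34 ± 0.187 by 207979_s_at (95% interval -0.0615 to 0.732, limma adjusted p = 0.295, higher in 6 lines). By 215332_s_at it was at 0.13 ± 0.168 (95% interval -0.231 to 0.482, limma adjusted p = 0.704, higher in 5). By 207979_s_at only HPB-ALL and CUTLL1 were above the level of genes of other tissues. The changes of the other lines by this probe set are between signals at background. The estimate by 215332_s_at rested on few lines, at 0.03 without CUTLL1, 0.04 without HPB-ALL and 0.21 without CCRF-CEM. In both lines that were bright for CD8B, the 2 probe sets were higher after CompE, in HPB-ALL by 1.12 and 0.92 and in CUTLL1 by 0.66 and 1.03 on the log2 scale. The ACTB ratio in these 2 lines was 1.3 against 1.03 in HPB-ALL and 1.25 against 1.17 in CUTLL1; its part in the change was not tested line by line.

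**Figure D2:**
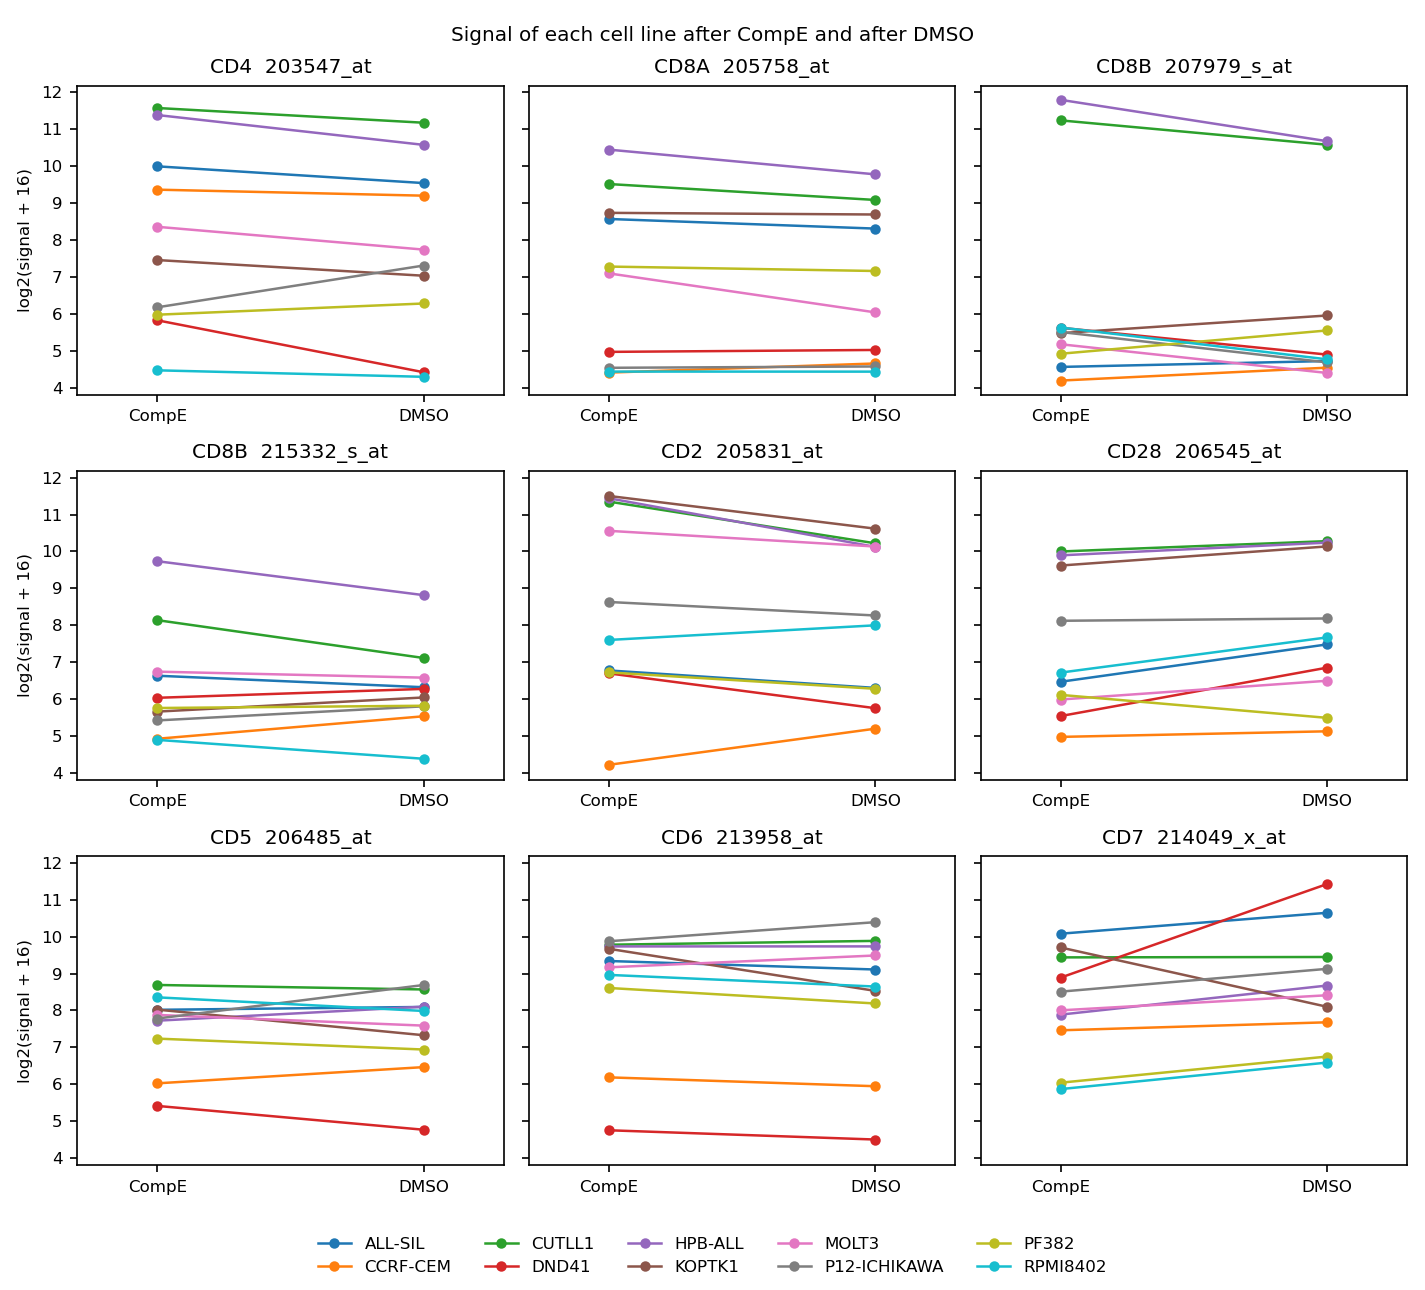
Signal of each line after CompE (left point) and after DMSO (right point), as log2(signal + 16), for 9 probe sets of the 8 genes; a line joins the 2 arrays of a cell line. CD8B by 207979_s_at is bright in HPB-ALL and CUTLL1 alone, CD28 is lower after CompE in 9 of 10 lines, and CD7 in DND41 is the steepest line.

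CD2 is an adhesion receptor that binds CD58, and CD28 is the co-stimulatory receptor for CD80 and CD86. They were bright in many of the same lines, and their estimates under CompE had opposite signs, neither of which passed the test. The windows around their start sites are shown with that of CD8A, since only these genes had one. They are from RefSeq (GRCh38.p14, 250 bases before to 50 after the start). The table held windows for 3 of the 8 genes, CD2, CD28 and CD8A, and of the 4 windows of CD8A the first listed is shown. Capitals mark TGGGAA (the core of the site of RBPJ, the DNA-binding partner of NOTCH), TGTGGT (the core of a RUNX site) and CAGNTG (an E-box of the kind E proteins bind), each searched on both strands.
CD2 promoter, chr1:116754180-116754479, plus strand: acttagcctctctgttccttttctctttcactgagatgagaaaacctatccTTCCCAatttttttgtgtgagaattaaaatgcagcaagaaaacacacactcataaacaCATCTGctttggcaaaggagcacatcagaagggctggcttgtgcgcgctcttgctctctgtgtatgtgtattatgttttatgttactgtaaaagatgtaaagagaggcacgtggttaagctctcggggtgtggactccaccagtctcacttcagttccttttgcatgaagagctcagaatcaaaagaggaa
CD28 promoter, chr2:203706389-203706688, plus strand: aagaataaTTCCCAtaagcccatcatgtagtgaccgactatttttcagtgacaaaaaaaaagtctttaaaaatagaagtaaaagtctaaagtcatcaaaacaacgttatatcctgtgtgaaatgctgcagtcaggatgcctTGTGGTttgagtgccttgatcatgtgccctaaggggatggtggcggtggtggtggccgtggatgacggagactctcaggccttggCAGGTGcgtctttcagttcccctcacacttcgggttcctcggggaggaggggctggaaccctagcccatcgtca
CD8A promoter, chr2:86807993-86808292, minus strand: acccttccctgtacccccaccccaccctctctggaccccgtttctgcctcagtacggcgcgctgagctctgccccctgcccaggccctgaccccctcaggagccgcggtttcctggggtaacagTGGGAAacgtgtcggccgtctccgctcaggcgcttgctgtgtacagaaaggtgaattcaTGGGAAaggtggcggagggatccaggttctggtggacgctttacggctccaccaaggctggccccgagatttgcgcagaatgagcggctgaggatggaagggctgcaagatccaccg
CD2 held 1 TGGGAA on the reverse strand, its first base at -199 from the start site, and 1 CAGNTG. CD28 held 1 TGGGAA on the reverse strand at -242, 1 TGTGGT at -109 and 1 CAGNTG at -24. The CD8A window shown held TGGGAA 2 times on the forward strand, at -126 and -67, and neither of the others. The other CD8A windows differ: window 2 held TGGGAA at -78 and CAGNTG at -92 and -86, and windows 3 and 4 held CAGNTG and no TGGGAA. Over all 35116 windows of the same length, 24.0% held TGGGAA, 13.1% TGTGGT and 49.9% CAGNTG, and 3.8% held TGGGAA at least 2 times. No marked motifs overlapped. A match describes these letters and does not show binding.

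CD2 (205831_at) had a signal of 2.61 at the lowest, 279 at the median and 2891 at the highest after CompE, against 20.7, 266 and 1556 after DMSO. KOPTK1 (2891 and 1556), HPB-ALL (2767 and 1100), CUTLL1 (2597 and 1178) and MOLT3 (1493 and 1108) formed a bright group, P12-ICHIKAWA (380 and 292) and RPMI8402 (178 and 240) were intermediate, and CCRF-CEM (2.61 and 20.7) was the dimmest. The change was 0.46 ± 0.182 (SE, 95% interval 0.077 to 0.846, unadjusted p = 0.0218, limma adjusted p = 0.141), and CD2 was higher after CompE in 8 of 10 lines. HPB-ALL, CUTLL1, DND41 and KOPTK1 had the largest log2 changes, 1.32, 1.13, 0.94 and 0.89, while RPMI8402 and CCRF-CEM went the other way by -0.40 and -0.98. Without CCRF-CEM, where CD2 was within the level of genes of other tissues and the media labels differ, the change was 0.62 and passed the threshold (limma adjusted p = 0.0365). CCRF-CEM had the most opposed change, so leaving it out must raise the estimate, and the pass is no separate support. ALL-SIL, DND41 and PF382 were above that level after CompE and not after DMSO. Without the 3 lines whose media labels differ, the change was 0.69 and did not pass (limma adjusted p = 0.0633). With the ACTB ratio as a covariate it was 0.30 (adjusted p = 0.43), and with the GAPDH ratio 0.32 (adjusted p = 0.411).

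CD28 (206545_at) had a signal of 15.4 at the lowest, 80.9 at the median and 1008 at the highest after CompE, against 18.9, 175 and 1228 after DMSO. CUTLL1 (1008 and 1228), HPB-ALL (936 and 1193) and KOPTK1 (770 and 1110) were brightest, and all 3 were also bright for CD2. MOLT3 was the exception among the lines bright for CD2, with CD28 at 47.5 after CompE and 74.3 after DMSO. The change was -0.45 ± 0.155 (SE, 95% interval -0.780 to -0.124, unadjusted p = 0.00996, limma adjusted p = 0.0964), the smallest p of any member, and CD28 was lower after CompE in 9 of 10 lines. The line that differed was PF382, at 53.2 after CompE and 29.0 after DMSO, both dim. Without it the change was -0.57 and passed the threshold (limma adjusted p = 0.04). Leaving out the line of opposite sign must make the estimate more negative, so the pass is no separate support. DND41 (30.5 and 99.5), ALL-SIL (72.6 and 163) and RPMI8402 (89.2 and 188) had the largest negative log2 changes.

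The other CD28 probe sets were dimmer but followed the first over the arrays (r = 0.87 and 0.77, n = 20). Their changes were -0.26 ± 0.162 for 211856_x_at (limma adjusted p = 0.351) and -0.34 ± 0.199 for 211861_x_at (adjusted p = 0.317), each lower in 8 of 10 lines. In KOPTK1 they read 29.4 and 6.61 after CompE against 86.6 and 64.7 after DMSO, a steeper difference than that of 206545_at, and without KOPTK1 the estimates were -0.16 and -0.17. KOPTK1 is also the line with the ACTB ratio of 9.76 after CompE against 3.32 after DMSO, and with that ratio as a covariate the 2 changes were 0.01 and 0.03, while that of 206545_at was -0.40 (limma adjusted p = 0.227).

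CD5 and CD6 encode related scavenger-receptor proteins, of which CD5 dampens T-cell receptor signals and CD6 binds ALCAM, and their genes neighbour each other on chromosome 11 with 0 protein-coding genes between them in RefSeq (GRCh38.p14). CD5 (206485_at) was above the level of genes of other tissues on both arrays in 8 of 10 lines. Its lowest, median and highest signals were 26.6, 212 and 397 after CompE, against 11.2, 207 and 397 after DMSO. The level of a line spanned 3.54 on the log2 scale, at percentile 92.6 of all tested probe sets. CUTLL1 was highest after CompE and P12-ICHIKAWA after DMSO. DND41 (26.6 and 11.2) and CCRF-CEM (49.1 and 72.3) were the dimmest. The brightest CD6 probe set, 213958_at, had 11.0, 596 and 924 after CompE, against 6.65, 461 and 1329 after DMSO, and DND41 (11.0 and 6.65) and CCRF-CEM (56.9 and 45.7) were again the dimmest. Over the 10 lines the levels of the 2 genes went together with r = 0.96 and rho = 0.83, and with r = 0.71 over 8 lines when DND41 and CCRF-CEM were left out. Of the 8658 tested probe sets with a range over lines of at least 1, that of CD6 was the one most like CD5 by this measure, and CD5 the one most like CD6; both were read on the same arrays.

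Neither gene passed the test under CompE. CD5 changed by 0.06 ± 0.148 (SE, 95% interval -0.251 to 0.374, limma adjusted p = 0.845), higher in 6 and lower in 4 lines. CD6 by 213958_at changed by 0.17 ± 0.13 (95% interval -0.110 to 0.441, limma adjusted p = 0.469), and by 0.06 without KOPTK1. The other CD6 probe sets gave 0.09, 0.02 and -0.05 for 211900_x_at, 211893_x_at and 208602_x_at (limma adjusted p from 0.854 to 0.972). P12-ICHIKAWA, whose media labels differ, had the lowest change of any line for CD5 and for each CD6 probe set. CD5 was 204 after CompE against 397 after DMSO there, CD6 by 213958_at 924 against 1329, and CD6 by 208602_x_at 46.2 against 217. In KOPTK1 the same genes lay the other way, with CD5 at 244 after CompE against 145 after DMSO and CD6 by 213958_at at 799 against 354. The log2 changes of the 3 CD6 _x_at probe sets correlated with each other at r = 0.76 to 0.87 over the 10 lines, and with 213958_at at 0.66 to 0.68; they share a target and are not independent.

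**Figure D3:**
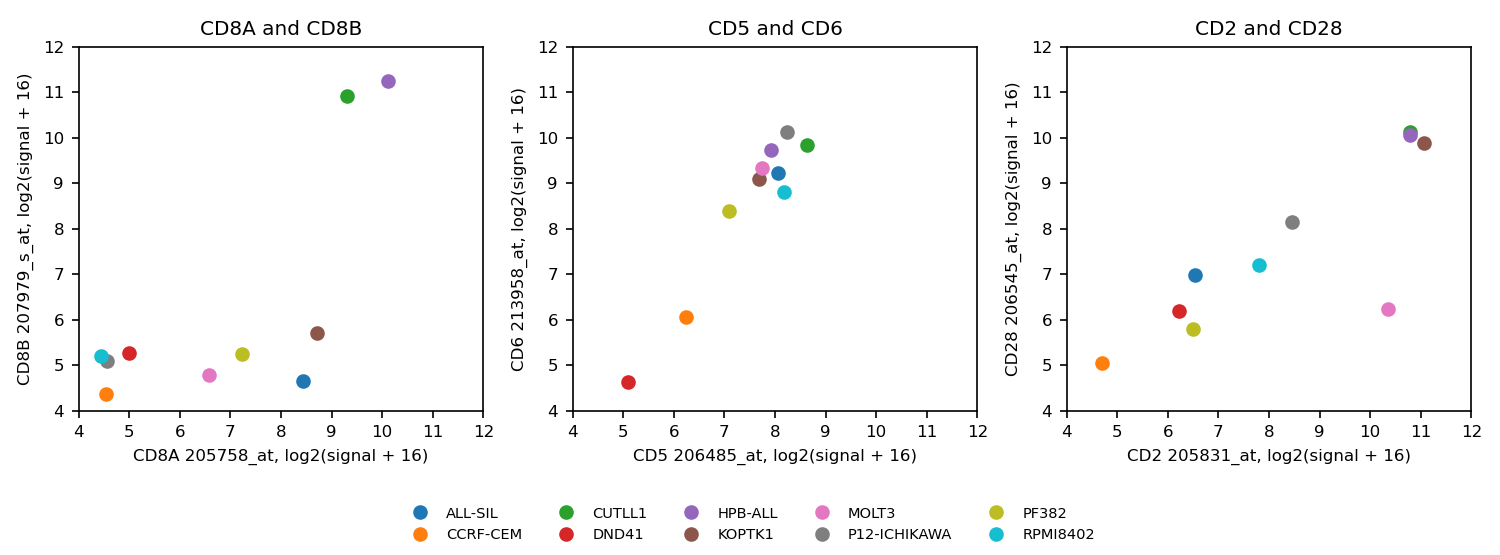
Levels of gene pairs by cell line, each point 1 line and each value the mean of log2(signal + 16) over its CompE and DMSO arrays. CD8A is spread over the axis while CD8B is high in HPB-ALL and CUTLL1 alone; CD5 and CD6 rank the lines alike, with DND41 and CCRF-CEM lowest; MOLT3 is bright for CD2 and not for CD28.

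CD7, an immunoglobulin-family protein that is among the earliest surface markers of the T lineage, had its own order of lines. By 214049_x_at its signal was 42.4, 295 and 1067 as lowest, median and highest after CompE, against 80.2, 359 and 2737 after DMSO. ALL-SIL was highest after CompE at 1067, against 1588 after DMSO, and DND41 was highest after DMSO at 2737, against 458 after CompE. DND41 was thus the brightest line for CD7 in DMSO and among the dimmest for CD4, CD8A, CD5 and CD6. RPMI8402 (42.4 and 80.2) and PF382 (49.9 and 91.7) were lowest.

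Under CompE, CD7 was at -0.50 ± 0.249 by 214049_x_at (SE, 95% interval -1.02 to 0.030, limma adjusted p = 0.243), lower in 9 of 10 lines, and at -0.59 ± 0.250 by 214551_s_at (95% interval -1.12 to -0.058, unadjusted p = 0.0319, adjusted p = 0.172), lower in 7. DND41 had the largest log2 change of any member in any line, -2.54 and -2.84 by the 2 probe sets. Without DND41 the estimates were -0.27 and -0.34. By 214049_x_at the 1 line that was higher was KOPTK1, at 820 after CompE against 258 after DMSO, a change of 1.61. By 214551_s_at PF382 (0.60), KOPTK1 (0.43) and CUTLL1 (0.09) were higher. The probe sets thus disagreed in size in KOPTK1 and in sign in PF382, which was at -0.71 by 214049_x_at. Without KOPTK1, the line with the ACTB ratio of 9.76 against 3.32, the change by 214049_x_at was -0.73 and passed the threshold (limma adjusted p = 0.0221), and that by 214551_s_at was -0.70 and did not (adjusted p = 0.0763). KOPTK1 was the only line with a positive change by 214049_x_at, so this pass is no separate support. With the ACTB ratio as a covariate, 214049_x_at was at -0.84 (limma adjusted p = 0.0927) and 214551_s_at at -0.60 (limma adjusted p = 0.271).

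**Figure D4:**
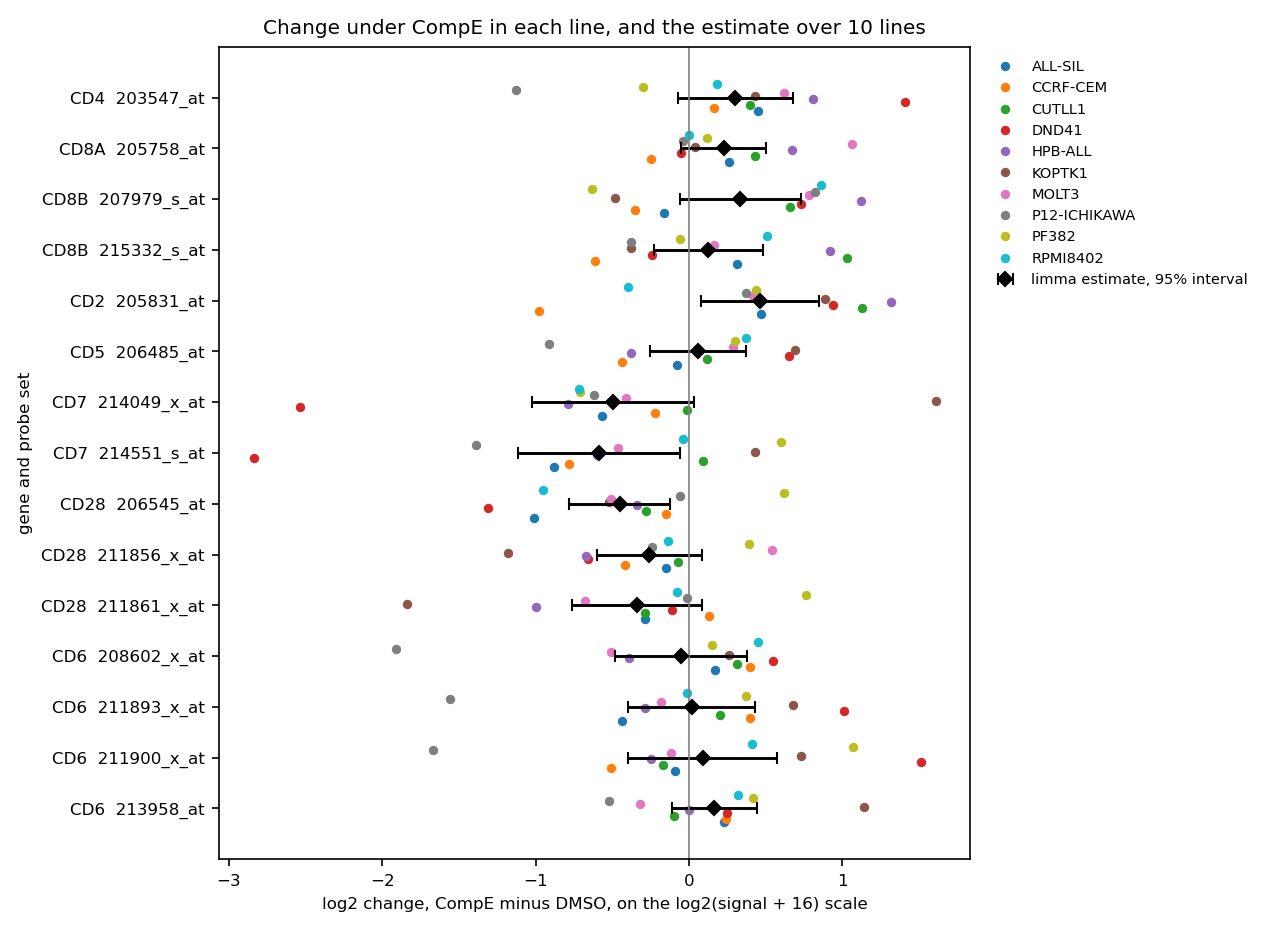
Log2 change under CompE (CompE minus DMSO) for the 15 probe sets tested; coloured points are the 10 lines, diamonds the limma estimate over lines and bars its 95% interval. The intervals of CD2, CD28 by 206545_at and CD7 by 214551_s_at lie to 1 side of 0 before adjustment, and DND41 lies lowest for both CD7 probe sets, with KOPTK1 highest by 214049_x_at and PF382 by 214551_s_at.

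The probe sets most like a member over the 10 lines, by r of the line's mean level, were given by the same rule for each gene. For CD2 they were those of TENM1 (r = 0.949), CD248 (0.892) and EVI2A (0.863), and for CD28 those of SLC35D1 (0.885), PPP1R12A (0.855) and CAMK4 (0.853). For CD8A they were QKI (0.931), FYB1 (0.918) and KIDINS220 (0.904), and for CD7 SP110 (0.926), CD96 (0.913) and PTPRCAP (0.903). For CD4 the highest r was 0.895, with PMS2P1, and for CD8B by 215332_s_at 0.955, with CES2. These are the highest of 8658 values over 10 points that share arrays, and they are descriptions of these lines.

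Of 14 regulators of T-cell fate tested, 3 rose under CompE by their brightest probe set and 0 fell, where 2.98% of all 7695 genes rose and 2.6% fell by theirs. SATB1, a chromatin organiser of thymocytes, rose by 0.64 ± 0.172 (adjusted p = 0.0429), TOX, a nuclear factor needed for the CD4 lineage in mice, by 0.52 ± 0.128 (adjusted p = 0.0325) and GATA3, a transcription factor of early T cells and helper T cells, by 0.30 ± 0.076 (adjusted p = 0.0339). With each array centred on its median, none of these 3 passed (0.57, 0.44 and 0.23; adjusted p = 0.0657, 0.064 and 0.143), and by the 10 fits that leave out a line SATB1 passed in 3, TOX in 2 and GATA3 in 4. For MYB a dim probe set was called lower (-0.61, adjusted p = 0.0411) while its brightest was at 0.10 (adjusted p = 0.448). The list's 35 probe sets had a median change of 0.137, against 0.026 over all.

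Of 18 tested genes for partners and ligands of the members, 2 rose and 0 fell (2.98% and 2.6% of all genes), and their 29 probe sets had a median change of 0.116. LCK, the kinase held by CD4 and CD8A, rose by 0.26 ± 0.062 (limma adjusted p = 0.03), higher in all 10 lines by its brighter probe set; the other was at 0.12 (adjusted p = 0.549). UBASH3A, a regulator of T-cell receptor signals, rose by 0.54 ± 0.144 (adjusted p = 0.0413), also in all 10 lines. Neither passed with median centring (0.19 and 0.47; adjusted p = 0.165 and 0.0712), and in the fits that leave out a line they passed in 4 and 3 of 10. Of 31 other T-cell surface receptors, 1 rose and 1 fell by the brightest probe set, a share close to the 2.98% and 2.6% over all genes, so the counts say nothing particular of these receptors. PTPRC (CD45), the phosphatase that activates LCK, rose by 0.64 ± 0.156 (adjusted p = 0.0316), and CD3G, a chain of the T-cell receptor complex, fell by 0.54 ± 0.136 (adjusted p = 0.0345) and was lower in 9 lines. Both kept their calls with median centring (0.57 and -0.61; adjusted p = 0.0471 and 0.0267); in the fits that leave out a line PTPRC passed in 4 and CD3G in 3. The 50 probe sets of these receptors had a median change of 0.119. The ACTB ratio moved with treatment in 9 lines; with it as a covariate, TOX, PTPRC, CD3G and LCK passed and SATB1, GATA3 and UBASH3A did not (adjusted p from 0.0156 to 0.0475 and from 0.0846 to 0.155).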

How the data were processed

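Affymetrix arrays, 20 in all, measured RNA of 10 leukemia lines after CompE and after DMSO. The deposited values are MAS5 signal intensities, per the submitters' processing notes; the MAS5 version is not given there. All arrays had a trimmed mean (2% off each end) of 250, and this scaling by the authors was kept. MAS5 subtracts mismatch signal and is noisy near 0; scaling hides changes in total RNA per cell.

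Of 22277 probe sets, 62 were controls, 19064 had 1 gene in the platform annotation, 1043 several and 2108 none listed. Probe sets with 1 gene and a mean log2(signal + 16) at or above the 40th percentile (a signal of about 32.5) were tested, 11685 in all; 1 member probe set, of CD4, was below. limma 3.58.1 under R 4.3.3 fitted the change, blocking on the line, with an intensity trend and Benjamini-Hochberg adjustment over all tested probe sets, two-sided. Pairs come from the line in the labels; each of the 10 CompE arrays had its highest correlation with its own line's DMSO array. In simulated data for this comparison, the fit on 11685 probe sets recovered 50.8% of changes of 0.5 log2 and 91.6% of changes of 1, with 5.03% false calls. The recovered shares are over changes added to probe sets drawn at random from all tested, and the false calls are a share of all calls. The SD of the change over lines had a median of 0.674 over the members, against 0.390 over all tested probe sets. Recovery for the members alone was not tested. The members, lists and named genes (members, list genes called by the brightest probe set, closest probe sets by level) were chosen with earlier results of these data known. The number of arrays limits the precision.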

Additional observations from a re-analysis of the deposited data

Results flagged for a closer look

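Of 48 sets of 10 values (log2 levels after CompE, log2 levels after DMSO and changes, for the 16 probe sets), 1 held a value set apart from the rest by more than Dixon's limit for 10 values; chance alone sets about 1 in 20 apart. The change of CD6 by 208602_x_at in P12-ICHIKAWA was -1.91, and the next lowest was -0.51, in MOLT3. The other CD6 probe sets in P12-ICHIKAWA changed by -1.56, -1.67 and -0.52.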

How the results depend on the processing

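The change of each member was recomputed in up to 25 other ways. Of 354 values, 326 kept direction and side of the threshold, 3 passed it (CD2, CD7 and CD28, each without 1 line, as given above) and 25 changed sign, none of them past the threshold. In these 3 fits the line left out was the one whose change lay furthest the other way. CD6 208602_x_at was at 0.16 with pseudocount 1, 0.11 with the GAPDH ratio as a covariate and 0.21 without the 3 lines with another medium label. CD6 211893_x_at was at -0.08 with pseudocount 64, -0.07 with quantile normalization and -0.05 with median centring, where CD5 was at -0.01. With the ACTB ratio as a covariate, CD5 was at -0.05, CD28 211856_x_at at 0.01 and 211861_x_at at 0.03, and CD6 211893_x_at, 211900_x_at and 213958_at at -0.11, -0.02 and -0.01; with the GAPDH ratio CD28 211861_x_at was at 0.02. Leaving out 1 line gave -0.01 to 0.17 for CD5, and for CD6 -0.12 to 0.16 (208602_x_at), -0.09 to 0.19 (211893_x_at) and -0.07 to 0.29 (211900_x_at). The causes were not tested.

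Without the replicate block (line as the pair) and by the exact sign-flip test, 0 probe sets passed over the whole array, against 575 with limma (534 and 2582 at an unadjusted p under 0.05, against 2716). The count was 347 with the ACTB ratio, 253 with the GAPDH ratio, 206 without the 3 lines with another medium label, 319 with no trend and 389 with no filter; leaving out 1 line gave 93 (HPB-ALL) to 1321 (KOPTK1), and 0 to 1 member probe sets or genes. Median centring gave 120 higher and 446 lower, against 270 and 305, and moved the median change to -0.046, against 0.026. The number of arrays and signals near the level of silent genes limit what dim members can show.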
